A study of Homo sapiens with 4 samples.

Results

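The regions described here are the GATA4 intervals of chromosome 20 that start before position 49500000 in build hg19, called the upper limit here, which is the chromosome up to the dense block in its distal long arm. The rule uses positions only, but its upper limit was set with the interval density beyond it known. The intervals number 569, or 2.69% of the 21139 intervals listed on the 22 autosomes and chromosome X. Of these, 190 start before 26 Mb and are called the short arm here, and 379 start between 26 Mb and the upper limit and are called the long arm part. The chromosome carries another 1263 intervals beyond the limit.

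Occupancy was measured by CUT&RUN, in which an antibody directs a micrococcal nuclease to the protein of interest in permeabilised cells and the released DNA is sequenced. All 4 libraries were made from PaTu8988S, an established line derived from a pancreatic adenocarcinoma, with 500000 cells and 10 ug of the anti-GATA4 antibody MAB2606 each, and no treatment or genetic change is given for any of them. They form 1 group, and whether separate cultures were used is not stated in the labels. The list holds the intervals common to the 4 libraries, each as a chromosome, a start and an end, with no score, so occupancy strength and the spread between libraries cannot be given. Depth is unknown for the same reason. The comparisons below are between parts of the genome and are descriptions without a test, because intervals along a chromosome are not replicates. The error ranges beside medians and shares are 95% intervals from the binomial distribution (of order statistics for medians, Clopper-Pearson for shares). They treat intervals as independent and cover counting error only.

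GATA4 is a zinc-finger transcription factor that binds GATA sequences and, with its paralogue GATA6, helps to specify endoderm and its derivatives, the pancreas among them. It often shares its sites with other endodermal factors. Chromosome 20 carries genes of such factors, FOXA2 on the short arm, a pioneer factor of endoderm, and HNF4A on the long arm, a nuclear receptor of the epithelial programme of liver, gut and pancreas. An hg19 annotation and sequence were not used here, so no interval is assigned to these or other genes and no sequence is shown.

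The long arm part carried GATA4 intervals at more than double the density of the short arm. The short arm held 7.31 intervals per Mb and the long arm part 16.1 per Mb, a ratio of 0.453. The long arm part includes the longest interval-free stretch of these regions, which runs from 26317558 to 29439611 (3.12 Mb). With that stretch taken out of the length, the long arm part held 18.6 per Mb and the ratio was 0.393. Intervals covered 121.85 kb of the short arm (0.469%) and 261 kb of the long arm part (1.11%). Merging intervals within 1 kb of each other left 182 in the short arm and 312 in the long arm part, with a density ratio of 0.527.

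The boundary at 26 Mb does not fall on a break in the data. The last interval before it ran from 25991011 to 25991486 (475 bp) and the first after it from 26039461 to 26040015 (554 bp), 48 kb further on. There were 35 intervals in the last 1 Mb before 26 Mb and 44 between 26 Mb and the start of the interval-free stretch, a distance of 318 kb. These 44 intervals are 11.6% of the long arm part by the rule but lie on the short arm side of the stretch. In hg19 a chromosome's centromere is drawn as a run of undetermined bases, where no interval can be called; whether the stretch is that run was not checked here. Divided at the stretch, the chromosome held 234 intervals on the short arm side (8.89 per Mb) and 335 on the long arm side up to the limit (16.7 per Mb), a ratio of 0.532.

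The sides held nearly equal numbers near the stretch and parted with distance from it. In the first 500 kb, 53 intervals lay on the short arm side and 55 on the long arm side, that is 106 and 110 per Mb. The next 500 kb held 15 on the short arm side and 16 on the long arm side, and the distance from 1 to 2 Mb held 22 and 23 in the same order. The first 2 Mb thus held 90 intervals on the short arm side and 94 on the long arm side, a ratio of 0.957. From 2 to 5 Mb the counts were 27 on the short arm side and 46 on the long arm side, while from 5 to 10 Mb they were again near each other, with 44 and 49. Beyond 10 Mb the counts lay further apart. Between 10 and 15 Mb the short arm side held 19 intervals and the long arm side 43. Between 15 and 20 Mb the short arm side held 21 and the long arm side 101, a ratio of 0.208. Much of the last difference lay at the far end of the long arm side: between 15 and 18 Mb the counts were 17 on the short arm side and 38 on the long arm side, a ratio of 0.447.

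**Figure D1:**
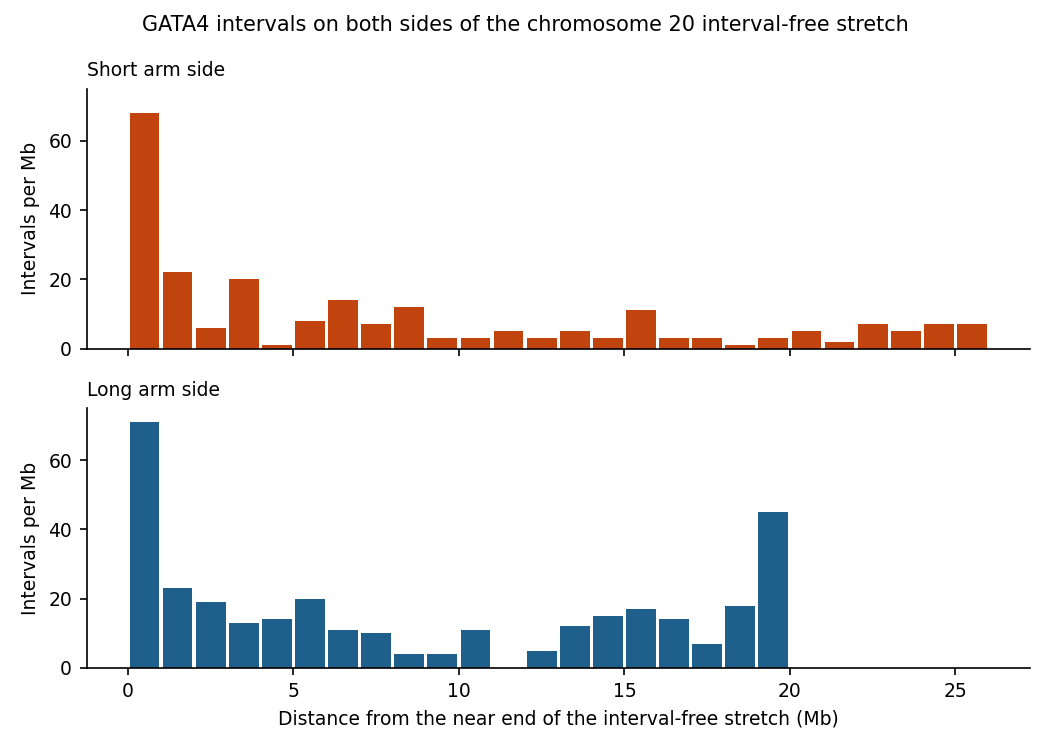
Intervals per Mb (vertical axis) in 1 Mb bins of distance from the near end of the interval-free stretch (horizontal axis), with the short arm side above and the long arm side below; only full bins are drawn. Both sides begin high, with 68 intervals in the first Mb of the short arm side and 71 in that of the long arm side, and the long arm side ends with 45 in its last full bin, while beyond 4 Mb no bin of the short arm side holds more than 14.

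Intervals beside the stretch were the most crowded of these regions. The 139 intervals within 1 Mb of it made up 24.4% of all 569, at 69.5 per Mb, and included 115 of the 379 in the long arm part (30.3%) and 24 of the 190 in the short arm (12.6%). On the short arm side the first Mb was 10.4 times as dense as the 6.56 per Mb of the rest of that side. On the long arm side it was 5.13 times as dense as the 13.9 per Mb of the rest. The median distance from an interval to its nearest neighbour was 0.653 kb within 1 Mb of the stretch, against 31.4 kb on the rest of the short arm side and 15.9 kb on the rest of the long arm side. A neighbour 100 bp away or closer was found for 40 of the 139 (28.8%, 21.4 to 37.1%), but for 2 of 166 (1.20%, 0.146 to 4.28%) on the rest of the short arm side and 4 of 264 (1.52%, 0.414 to 3.83%) on the rest of the long arm side. The share was 8.08% over all 569 regions and 8.54% over the whole list, so away from the stretch it was below that of the list. Whether such neighbours are pieces of a single longer interval was not tested. The list gives no score, so whether the crowding beside the stretch reflects occupancy by GATA4 was not tested either.

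Both clusters of 20 or more intervals among these regions lay there, where a cluster links intervals no more than 12500 bp apart. The larger ran from 29580449 to 29638819 on the long arm side and held 37 intervals in 58.4 kb. Its intervals covered 59.7% of it and were between 171 and 3280 bp wide, with a median of 721 bp. Of its 36 gaps, 11 were 100 bp or shorter. The other ran from 26259383 to 26317558, up to the edge of the stretch on the short arm side, and held 27 intervals in 58.2 kb. Both clusters were thus alike in length but not in make-up: the intervals of the smaller covered 21.1% of it, their median width was 379 bp, and 4 of its 26 gaps were 100 bp or shorter. The next largest cluster of the long arm part, from 29808724 to 29832991, held 16 intervals that covered 39.5% of 24.3 kb, with a median width of 471 bp. By the rule's boundary the first 3 clusters named here all belong to the long arm part, although 1 of them lies on the short arm side of the stretch. Another, from 26039461 to 26080075, held 11 intervals of 554 to 1263 bp with a median of 832 bp, and is named, after its values were seen, because its narrowest interval was wider than the median of the 27 beside the stretch.

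**Figure D2:**
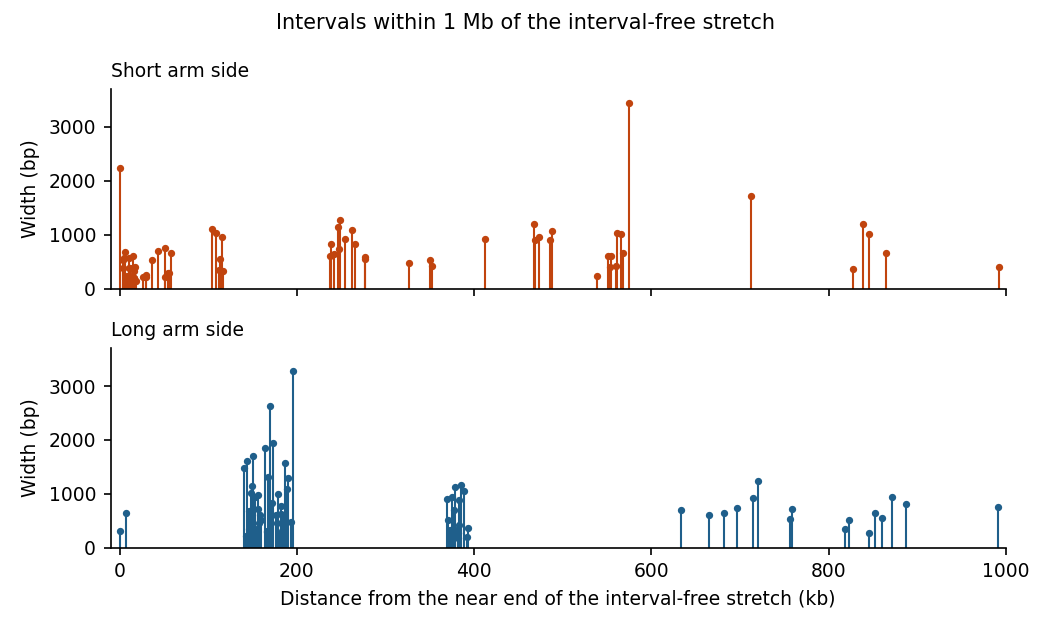
Width in bp of every interval (vertical axis) within 1 Mb of the interval-free stretch, by its distance in kb from the near end of the stretch (horizontal axis), with the short arm side above and the long arm side below. On the short arm side 27 intervals crowd against the edge, while on the long arm side the crowd of 37 begins 141 kb away and is followed by another of 16.

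The widest intervals were also mostly found beside the stretch. In the long arm part the widest ran from 29635539 to 29638819 (3280 bp). It was followed by the interval from 29609188 to 29611826 (2638 bp), and then by that from 26315325 to 26317558 (2233 bp), which is the last before the stretch. A further one, from 49346237 to 49348458 (2221 bp), lay at the other end of the part. The last of the 5 widest spanned 29612764 to 29614699 (1935 bp). In the short arm the widest ran from 25738712 to 25742158 (3446 bp), 575 kb from the stretch, and was the widest of all 569. The next ran from 25603862 to 25605576 (1714 bp) and had no neighbour within 113.5 kb. The remaining 3 of the short arm's 5 widest lay further out. They spanned 23028943 to 23030367 (1424 bp), 22504040 to 22505456 (1416 bp) and 17662436 to 17663752 (1316 bp). Away from the stretch no interval was wider than 1424 bp on the short arm side or 2221 bp on the long arm side. Narrow intervals were frequent beside the stretch too: 22 of the 139 within 1 Mb (15.8%) were under 300 bp, against 12 of 166 (7.23%) on the rest of the short arm side and 9 of 264 (3.41%) on the rest of the long arm side. Over the whole list the share under 300 bp was 8.73%. Widths beside the stretch were more spread out than elsewhere in these regions, with quartiles of 371 and 947.5 bp. The quartiles were 410 and 771 bp on the rest of the short arm side and 435 and 824 bp on the rest of the long arm side.

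Typical widths differed little between the arms. The median was 569.5 bp in the short arm (527 to 636 bp) and 614 bp in the long arm part (574 to 649 bp), a ratio of 0.928, and the 2 error ranges overlapped. Intervals of 1 kb or more made up 21 of 190 in the short arm (11.1%) and 63 of 379 in the long arm part (16.6%). Both shares were below the 18.2% of the whole list. Away from the stretch the medians were 549 bp on the short arm side (508 to 614 bp) and 617 bp on the long arm side (574 to 653 bp), a ratio of 0.890, and the ranges overlapped again. Width varied along the short arm: the median was 572 bp for the 41 intervals of the first 10 Mb, 473 bp for the 63 from 10 to 20 Mb and 595 bp for the 51 from 20 to 25 Mb.

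How many intervals stood alone depended on how the arms were divided. In the short arm 122 of 190 intervals (64.2%, 57.0 to 71.0%) had no neighbour within 12500 bp, against 153 of 379 (40.4%, 35.4 to 45.5%) in the long arm part. The share of the whole list was 40.4%, as in the long arm part. Divided at the stretch, the shares were 52.1% on the short arm side (45.5 to 58.7%) and 45.7% on the long arm side (40.2 to 51.2%), with overlapping error ranges. Away from the stretch the shares were 69.9% on the short arm side (62.3 to 76.7%) and 55.7% on the long arm side (49.46 to 61.8%). With the long arm side ended at 48 Mb, a choice made after seeing the data, its share was 64.4% (57.5 to 70.9%). Whether an interval stands alone or in a cluster depends on its neighbours, so the intervals are not independent here. Overlap of these ranges, or its absence, is therefore no test of a difference between the sides. The median distance to the nearest neighbour was 26.7 kb in the short arm and 6.47 kb in the long arm part, but 15.4 kb on the short arm side and 8.78 kb on the long arm side when divided at the stretch. Neighbours more than 100 kb away were the nearest ones for 39 of 166 intervals on the rest of the short arm side (23.5%) and for 12 of 264 on the rest of the long arm side (4.55%). The share of the whole list, 12.54%, lay between these values. Clusters of 3 or more held 30 intervals of the short arm (15.8%, 10.9 to 21.8%) and 140 of the long arm part (36.9%, 32.1 to 42.0%), a difference of -21.1 percentage points, short arm minus long arm part. Both shares were below the 45.1% of the whole list. The order of the arms depends on where they are divided. With the division at the stretch, chosen after seeing the data, the shares were 31.6% on the short arm side and 28.7% on the long arm side, a difference of 2.97 points in the other direction. Without intervals within 1 Mb of the stretch they were 8.43% on the short arm side (4.69 to 13.7%) and 14.8% on the long arm side (10.7 to 19.6%), with overlapping error ranges. With the long arm side also ended at 48 Mb they were 8.43% on the short arm side and 8.65% on the long arm side, a difference of -0.22 points.

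The short arm's largest clusters were small. The first ran from 25738712 to 25766359 and held 8 intervals, among them the widest of all. The next largest held 5 each, from 25028744 to 25065415 and from 25828808 to 25849550. Their distances from the stretch were 551, 1252 and 468 kb. Further than 1 Mb from the stretch there were 4 clusters of 3 or more on the short arm side and 10 on the long arm side. The largest of them held 5 intervals on the short arm side and 6 on the long arm side. The cluster of 6 ran from 49345357 to 49363315 and included the interval of 2221 bp.

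Along the short arm the density was higher toward the stretch. It was 4.10 per Mb in the first 10 Mb, 6.30 per Mb from 10 to 20 Mb and 10.2 per Mb from 20 to 25 Mb. The rise was not steady: successive 5 Mb windows from the chromosome's start held 5.4, 2.8, 5.8, 6.8 and 10.2 per Mb. Windows of 1 Mb in the short arm held between 0 and 35 intervals, with a median of 6.5 over 26 windows. The fullest were those from 25 to 26 Mb with 35 intervals, from 22 to 23 Mb with 14 and from 23 to 24 Mb with 12. The first interval of the chromosome ran from 350951 to 351291. The emptiest ground lay between 6691262 and 9053544, where a stretch of 2.36 Mb held a single interval, from 7999936 to 8000640 (704 bp). The stretches on either side of that interval, 1.31 and 1.05 Mb long, were the longest of the short arm, followed by 0.845 Mb from 13130715 to 13975732. The lone interval was no narrower than its arm's median.

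Along the long arm part the density was lowest in the middle. It was 14.2 per Mb from 30 to 40 Mb, 10.25 per Mb from 40 to 48 Mb and 37.3 per Mb in the last 1.5 Mb, where 56 intervals lay. The cut at 48 Mb was chosen after seeing the data. The regular window from 45 Mb to the upper limit held 20 per Mb. Windows of 1 Mb held between 0 and 55 intervals, with a median of 12 over 23 windows, and 2 empty windows lay within the interval-free stretch. The fullest windows were those from 29 to 30 Mb with 55 intervals, from 26 to 27 Mb with 44 and from 48 to 49 Mb with 29. After the interval-free stretch, the longest ground without an interval ran from 40272690 to 41923747 (1.65 Mb) and from 37900947 to 38589730 (0.689 Mb). The crowding of the last 1.5 Mb was not accompanied by width: the median there was 541 bp, against 637.5 bp from 40 to 48 Mb and 626 bp from 30 to 40 Mb. The distance to the nearest neighbour had a median of 5.26 kb there, against 20.3 kb from 40 to 48 Mb.

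Density also kept increasing across the upper limit. The last interval before the limit ran from 49465753 to 49466478 (725 bp) and the first after it from 49609878 to 49610177 (299 bp), 143 kb further on. The last 1 Mb before the limit held 46 intervals and the first 1 Mb after it 204. The limit therefore separates ground with 11.5 intervals per Mb from ground with 93.8 per Mb, and the last 1.5 Mb before it lay between these levels at 37.3 per Mb.

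The regions were sparser and less clustered than the rest of chromosome 20, which the choice of the upper limit before the dense block fixed, so these values are only a description. Their median width was 605 bp (569 to 633 bp), against 730 bp (703 to 755 bp) beyond the limit, a ratio of 0.829. Intervals with no neighbour within 12500 bp made up 48.3% of the regions (44.2 to 52.5%), against 7.68% beyond the limit (6.27 to 9.29%). Their clusters of 20 or more held 11.2% of intervals, against 43.2% beyond the limit, and both clusters of the regions lay within 1 Mb of the interval-free stretch. Over the whole list such clusters held 21.1% of intervals, and on chromosome 8 before 140 Mb 3.73%. Intervals of 1 kb or more made up 14.8% of the regions and 28.0% of those beyond the limit.

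**Figure D3:**
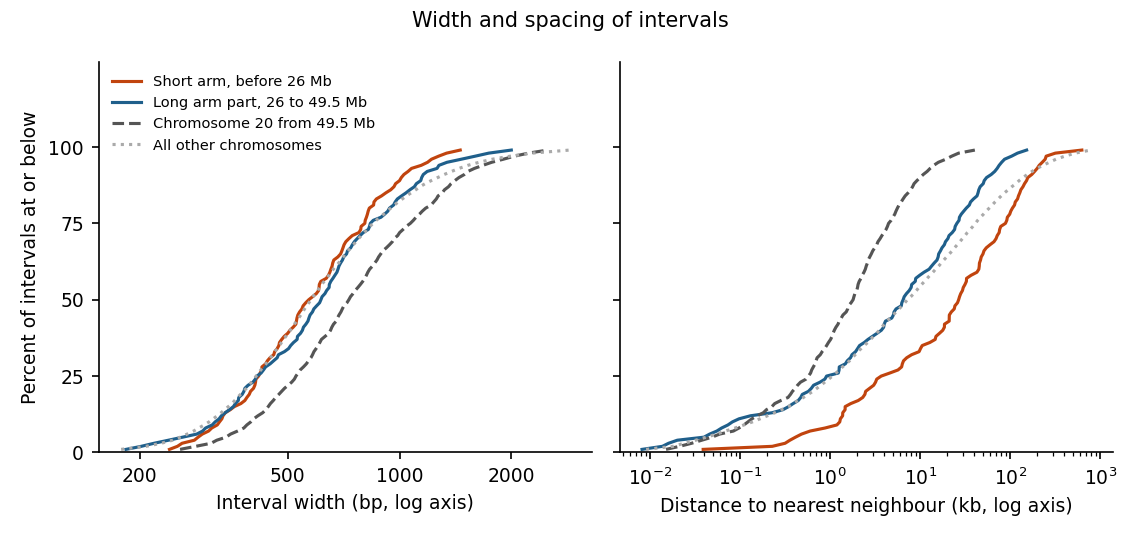
Percent of intervals (vertical axis) at or below a given width in bp (left) and a given distance to the nearest neighbour in kb (right), both on log axes, for the short arm, the long arm part, chromosome 20 beyond the upper limit and all other chromosomes. The width curves of both arms run close together (medians 569.5 and 614 bp) and left of that beyond the limit (730 bp), while the spacing curves have medians of 26.7 kb in the short arm, 6.47 kb in the long arm part and 1.80 kb beyond the limit.

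Away from the stretch, the short arm side resembled the other chromosomes in density but not in spacing, and the long arm side lay above them in density. The median distance to the nearest neighbour was 31.4 kb on the short arm side and 15.9 kb on the long arm side. On the other chromosomes it was 7.20 kb. Clusters of 3 or more held 8.43% of intervals on the short arm side and 14.8% on the long arm side, against 43.0%. The other 22 chromosomes together held 6.70 intervals per Mb with a median width of 577 bp. The short arm side held 0.978 times that density and the long arm side up to the limit 2.07 times. The values of the other chromosomes count all of their intervals and their whole length, interval-free stretches included. The chromosome 20 sides leave out the stretch and 1 Mb beside it, so the measures differ. Each chromosome was also divided at its own longest interval-free stretch, leaving out 1 Mb beside it and sides with under 20 intervals. This gave 41 sides of other chromosomes, with densities from 1.21 to 64.6 per Mb, a median of 5.74 and quartiles of 3.36 and 9.56. With both parts of the chromosome 20 long arm counted, 44 sides could be ranked. The short arm side (6.65 per Mb counted from its first interval) ranked 22nd and the long arm side (13.9 per Mb) 8th in density. In median width they ranked 20th and 9th, in the same order. Chromosome 20 beyond the limit ranked 1st in density. The limit was set with the dense block beyond it known, while sides of other chromosomes keep their dense blocks. The ranks of the long arm side and of the part beyond the limit are therefore fixed in part by the rule. They are only a description. Chromosome 8 before 140 Mb, a part of nearby density, held 9.19 per Mb with a median width of 551 bp (531 to 566 bp), against 11.5 per Mb and 605 bp for the regions described here. Intervals with no neighbour within 12500 bp made up 48.3% of these regions and 53.1% of chromosome 8 before 140 Mb (50.4 to 55.9%).

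**Figure D4:**
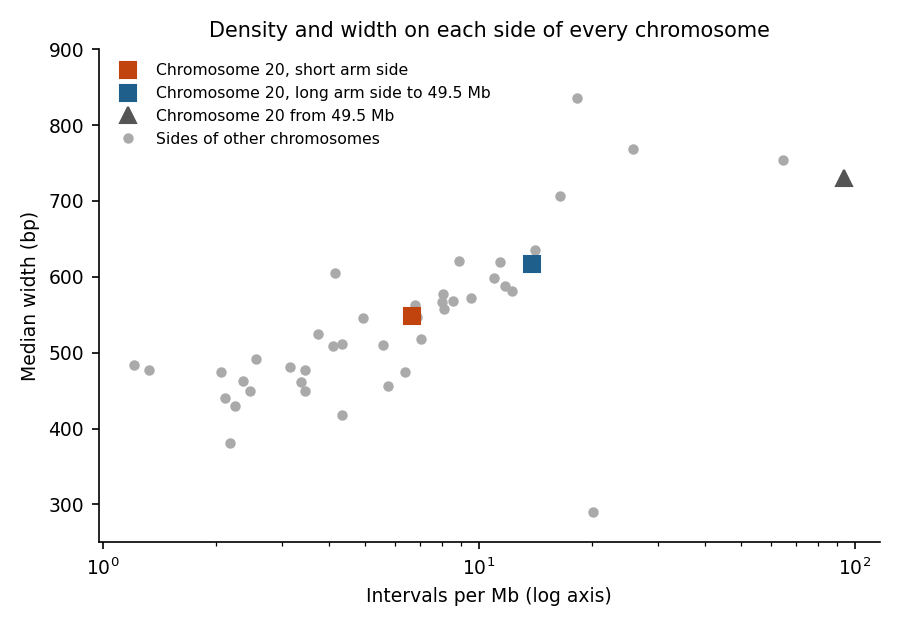
Median width in bp (vertical axis) against intervals per Mb (horizontal log axis) for each side of every chromosome's longest interval-free stretch, without the 1 Mb beside it; squares mark both sides of chromosome 20 up to the limit, the triangle the rest of it and grey points the 41 sides of other chromosomes. The short arm side (6.65 per Mb, 549 bp) lies in the middle of the grey points and the long arm side (13.9 per Mb, 617 bp) toward their upper right. The long arm side is cut at the limit before the dense block, while sides of other chromosomes keep their dense blocks.

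Crowding beside the longest interval-free stretch was shared by some chromosomes and not by most. On chromosome 20, 139 intervals lay within 1 Mb of it, ranking 3rd after chromosome 1 with 283 and chromosome 7 with 184. Chromosome 20 ranked 7th by their share of the whole chromosome's intervals (7.59%) and 9th by their density relative to the rest of the chromosome (2.36 times). Both values count the 1263 intervals beyond the upper limit, which lay at 93.8 per Mb. Against the rest of each side up to the limit, the first Mb was 10.4 times as dense on the short arm side and 5.13 times on the long arm side. Among the other 22 chromosomes the numbers ranged from 2 to 283 with a median of 10. On 6 of them there were 50 or more, and on 15 under 20. The density within 1 Mb exceeded that of the rest of the chromosome on 9 of the 22. The stretch need not be a centromere on every chromosome, and its place differed. Without the 1 Mb beside it, the sides before and after it were 159 and 23.5 Mb long on chromosome 4. On chromosome 6 they were 160 and 3.49 Mb long, and on chromosome 1 they were 120 and 106 Mb long. The count of chromosomes with crowding therefore compares stretches of unlike place. Median widths within 1 Mb of the stretch were 611 bp on chromosome 20, 663 bp on chromosome 1 and 464 bp on chromosome 7.

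Within the regions, fuller windows had slightly wider intervals. Over the 42 windows of 1 Mb with 3 or more intervals, count and median width had a Spearman rho of 0.33 and a Pearson r of 0.29. Without the 3 windows next to the stretch, rho was 0.30 and r 0.26 over 39 windows. These are descriptions across windows of 1 pooled list, which share their libraries and whose medians rest on few intervals where counts are low.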

How the data were processed

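CUT&RUN of GATA4 was done in 4 libraries of PaTu8988S cells. The submitters' processing notes name build hg19 and the programs SEACR, which calls peaks from CUT&RUN, and HOMER, which annotates peaks and finds motifs. Versions, parameters and the overlap that made an interval common: not given in the sources used here. The authors deposited 1 list of 21308 intervals pooled over the libraries, with 3 columns (chromosome, start and end in bp) and no score, signal or count; positions are printed as deposited.

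Intervals on the 22 autosomes and chromosome X were used. Width is end minus start. Clusters link intervals no more than 12.5 kb apart. Density is the number of starts divided by length. Functions were tested on simulated intervals. The computations ran in Python 3.11.15 (scipy 1.17.1, pandas 2.3.3, numpy 2.4.6) and the plots in matplotlib 3.10.9. The intervals named are the 5 widest, the 3 largest clusters, the 3 longest interval-free stretches and the 3 fullest 1 Mb windows of each arm part, and those at its limits. Regions, limits and lists were chosen with earlier results of these data known. The gene and promoter tables at hand are of another build (GRCh38.p14) and were not used.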

Additional observations from a re-analysis of the deposited data

How the results depend on the processing

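Of 91 recomputed values, 63 stayed within 1.5 times (counts, densities, ratios) or within the 95% range of the value in the report (medians, shares), 27 moved further and 1 reversed. The difference in shares was judged by the 95% ranges of both shares combined. Some of the 63 could not change, because settings that alter only the long arm part leave the short arm's values as they were. The tally is therefore no measure of stability. The density ratio of short arm to long arm part lay between 0.414 and 0.554 under 9 alternatives, and the width ratio between 0.864 and 0.923 under 7. With only intervals at or above the list's median width, the short arm held 93 (3.58 per Mb) and the long arm part 203 (8.64 per Mb), as fewer intervals were counted. Merging within 1 kb gave the long arm part a median width of 649.5 bp.

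The share in clusters of 3 or more moved most. For the short arm, the long arm part and their difference it was 31.6%, 28.7% and 2.97 points when divided at the stretch (reversed), and 8.43%, 14.8% and -6.34 without intervals within 1 Mb of it. It was 6.25%, 16.2% and -9.93 without those within 2 Mb (241 left in the long arm part), and 8.43%, 8.65% and -0.22 without those within 1 Mb and ending at 48 Mb (208 left). Merging gave the long arm part 24.4% and a difference of -9.52, and leaving out clusters of 20 or more 24.1% and -8.34. A linking distance of 5 kb gave 5.26% and 30.1%, and 25 kb 31.6% and 54.6%. The fullest window held 26.8 per Mb with 5 Mb windows, against 55 with 1 Mb windows. Dividing at the stretch for clusters, leaving out 2 Mb, leaving out large clusters and ending at 48 Mb were chosen after seeing the data.

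Checks of GATA motifs and gene starts were left out for want of hg19 sequence and annotation here, and so was leaving out each library, as the list is pooled. No paired analysis was possible because the list is pooled and holds 1 group. Depth is unknown, so empty ground shows only that no common interval was listed there.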
